A study of Mus musculus with 16 samples.

Results

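Dppa2, Dppa3, Dppa4 and Dppa5a are genes of the developmental pluripotency associated (Dppa) group. As a group they share a name and an expression in pluripotent and germ cells rather than a common ancestor, although Dppa2 and Dppa4 are paralogs. The members were taken by symbol from the 26127 genes of the table, and all 4 were among the 12892 genes with enough reads to be tested. The 16 libraries were made from ribosome-depleted total RNA of mouse embryonic stem cells (ESCs) in culture. There were 8 wildtype (WT) libraries, 4 from cells with both alleles of Dnmt1 knocked out (Dnmt1 KO) and 4 from cells that lacked Dicer as well (Dicer/Dnmt1 KO, the double knockout), and the study asked how loss of the maintenance DNA methyltransferase and of the small RNA processing enzyme alters transcription. By their titles the Dnmt1 KO cells were Dicer controls and the WT cells were controls for both genes. The labels give the background as E14 for every group. The methods instead describe a C57BL/6 parent line with loxP sites at both Dnmt1 alleles and tamoxifen-induced Cre. From it CRISPR/Cas9 gave a constitutive Dicer knockout and also a line with loxP sites at Dicer, in which both genes are deleted on induction. Which kind of Dicer line was used here is not given by the labels. The cells were grown in serum and LIF with or without feeder cells. The origin of these libraries is therefore uncertain, and the labels give no time since induction and no number of clones. Each library has a number and a letter, A or B, which the labels do not explain, so the p-values measure the spread between these libraries, which may be partly technical.

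Dppa2 and Dppa4 are neighbouring paralogs that carry a SAP domain, bind each other and occupy chromatin, where they keep developmental promoters free of DNA methylation and act upstream of Dux and the Zscan4 genes of the 2-cell-like state. Dppa3, also called Stella or PGC7, is a maternal factor and a marker of primordial germ cells that binds UHRF1 and so limits the maintenance methylation carried out by DNMT1. Dppa5a, also called Esg1, encodes a KH-domain RNA-binding protein that is abundant in ESCs.

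Whether reads can be assigned to these genes depends on their copies in the genome, since the authors discarded alignments with a mapping quality under 20. In the mouse build NCBIM37, Dppa4 (ENSMUSG00000058550) lies at chr16:48283848-48294405 and Dppa2 (ENSMUSG00000072419) at chr16:48310590-48319836, both on the plus strand. Dppa3 (ENSMUSG00000046323) lies at chr6:122576428-122580290 on the plus strand, and Dppa5a (ENSMUSG00000060461) at chr9:78214859-78215984 on the minus strand. A search with blastn for stretches of at least 100 bases and 90% identity outside the gene itself found copies of the longest annotated transcript of each. They covered 91.7% of the 1948 bases of Dppa2, 98.1% of the 833 bases of Dppa3, 96.5% of the 1534 bases of Dppa4 and 98.4% of the 619 bases of Dppa5a. At an identity of at least 97% the shares were 60.5%, 98.1%, 82.2% and 69.0%. The closest stretch was 98.9% identical for Dppa2, 97.68% for Dppa3 and 98.08% for Dppa4. For Dppa5a, bases 375 to 619 were identical in Dppa5b, described next, and in an unannotated stretch of chromosome 9. Reads that match a copy as well as the gene would have been lost. The covered shares do not give how many, since differing bases can still tell reads apart. The levels of all 4 genes, and their order by level, are therefore uncertain to an unknown degree. Of 13 annotated genes that overlapped a copy, 10 were not in the table and their levels were not analysed here.

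The closest copy with a level of its own in the table was Dppa5b (ENSMUSG00000069620, chr9:78093301-78094403, plus strand), which GENCODE lists as protein coding and RefSeq as a pseudogene. The first 300 coding bases of both are shown, from the GENCODE M1 transcripts of the NCBIM37 build, because they set which reads can tell the genes apart. Capitals mark the bases at which they differ.
Dppa5a: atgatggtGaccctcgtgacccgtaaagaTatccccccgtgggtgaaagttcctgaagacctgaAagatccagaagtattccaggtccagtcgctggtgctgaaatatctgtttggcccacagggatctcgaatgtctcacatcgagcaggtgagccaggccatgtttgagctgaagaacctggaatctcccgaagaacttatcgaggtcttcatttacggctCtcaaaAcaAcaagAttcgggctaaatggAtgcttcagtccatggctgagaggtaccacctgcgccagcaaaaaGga
Dppa5b: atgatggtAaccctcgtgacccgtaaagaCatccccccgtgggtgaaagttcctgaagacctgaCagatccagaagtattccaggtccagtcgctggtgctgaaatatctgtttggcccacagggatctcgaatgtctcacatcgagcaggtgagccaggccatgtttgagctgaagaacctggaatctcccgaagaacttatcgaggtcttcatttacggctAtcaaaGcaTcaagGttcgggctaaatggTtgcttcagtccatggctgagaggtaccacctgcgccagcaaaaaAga
The whole coding sequences, of 357 bases each, differed at 9 bases (97.5% identical), all of them in the stretch shown, and the longest identical run was 158 bases. Of the 520 windows of 100 bases (the read length) in the Dppa5a transcript, 199 were found unchanged in Dppa5b and 324 (62.3%) with at most 2 differing bases.

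The ESC markers were all present, with Pou5f1 at a mean log2 RPM (log2 of the reads of a gene scaled to the reads of the library) of 8.45 in WT, 8.45 in Dnmt1 KO and 8.26 in the double knockout. The summed level of 7 ESC markers was 1170 to 1430 RPM in WT, 995 to 1170 in Dnmt1 KO and 1140 to 1220 in the double knockout. Sox2 and Nanog were 0.67 and 0.64 lower in Dnmt1 KO, Lin28a and Utf1 were 1.37 and 0.63 lower and Sall4 0.60 higher in the double knockout, and no other of the 7 was called against WT (limma). The call of Sall4 was lost with A and B treated as correlated (adjusted p = 0.0731). Dnmt1 itself fell by 2.66 on the log2 scale in Dnmt1 KO and by 2.49 in the double knockout, and Dicer1 fell by 1.40 in Dicer/Dnmt1 KO against WT. The libraries WT 4A and 4B stood apart. They held Dnmt1 at 5.55 to 5.69, beside 7.40 to 7.66 in WT numbers 1 to 3. Dicer1 was also low in them, at 4.78 in 4A and 4.56 in 4B, beside 5.15 to 5.68. Ribosomal protein genes took 10.7% and 11.2% of their gene reads beside 6.77% to 8.86%. In these libraries short genes were also relatively high, with a Spearman correlation across genes between deviation and transcript length of -0.50 and -0.51, beside -0.32 to 0.21 in the remaining WT. It was -0.30 to 0.15 for Dnmt1 KO and 0.31 to 0.37 for the double knockout. The falls of Dnmt1 and Dicer1 above are from all 8 WT libraries and are smaller than those from WT numbers 1 to 3. The mean of Dnmt1 was 7.54 in WT numbers 1 to 3, 4.40 in Dnmt1 KO and 4.57 in the double knockout. Differences of Dppa2, Dppa4 and Dppa5a from WT are given with and without WT 4A and 4B. Other genes are compared with all 8 WT libraries unless stated.

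Of the 4 genes, Dppa2 rose in both knockouts, Dppa3 passed the threshold as lower in Dnmt1 KO alone, and Dppa4 and Dppa5a did not pass it in any comparison. In Dnmt1 KO against WT, 1 of 4 was called higher and 1 lower at an adjusted p under 0.05 (limma, Benjamini-Hochberg over all tested genes), where 41.0% of all tested genes were called, 23.5% higher and 17.5% lower. In Dicer/Dnmt1 KO against WT, 1 of 4 was called higher and 0 lower, where 61.9% of tested genes were called, 31.9% higher and 30.1% lower. Between the knockouts 0 of 4 were called, where 36.3% of tested genes were, 16.9% higher and 19.4% lower in the double knockout. Dppa2 alone had groups that did not overlap, as higher, in both comparisons with WT, and none did as lower. Over all tested genes the groups did not overlap for 14.8% as higher and 8.43% as lower in Dnmt1 KO, for 22.6% and 18.9% in the double knockout, and for 20.8% and 22.3% between the knockouts. The median difference of the 4 genes was -0.13, -0.07 and 0.01 in these comparisons, beside 0.04, 0.02 and -0.01 over all tested genes. With 4 members, 2 called in Dnmt1 KO is near the share of all genes, and the counts in the other comparisons were below it. Both knockouts are set against the same WT libraries, so their differences from WT are not independent.

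**Figure D1:**
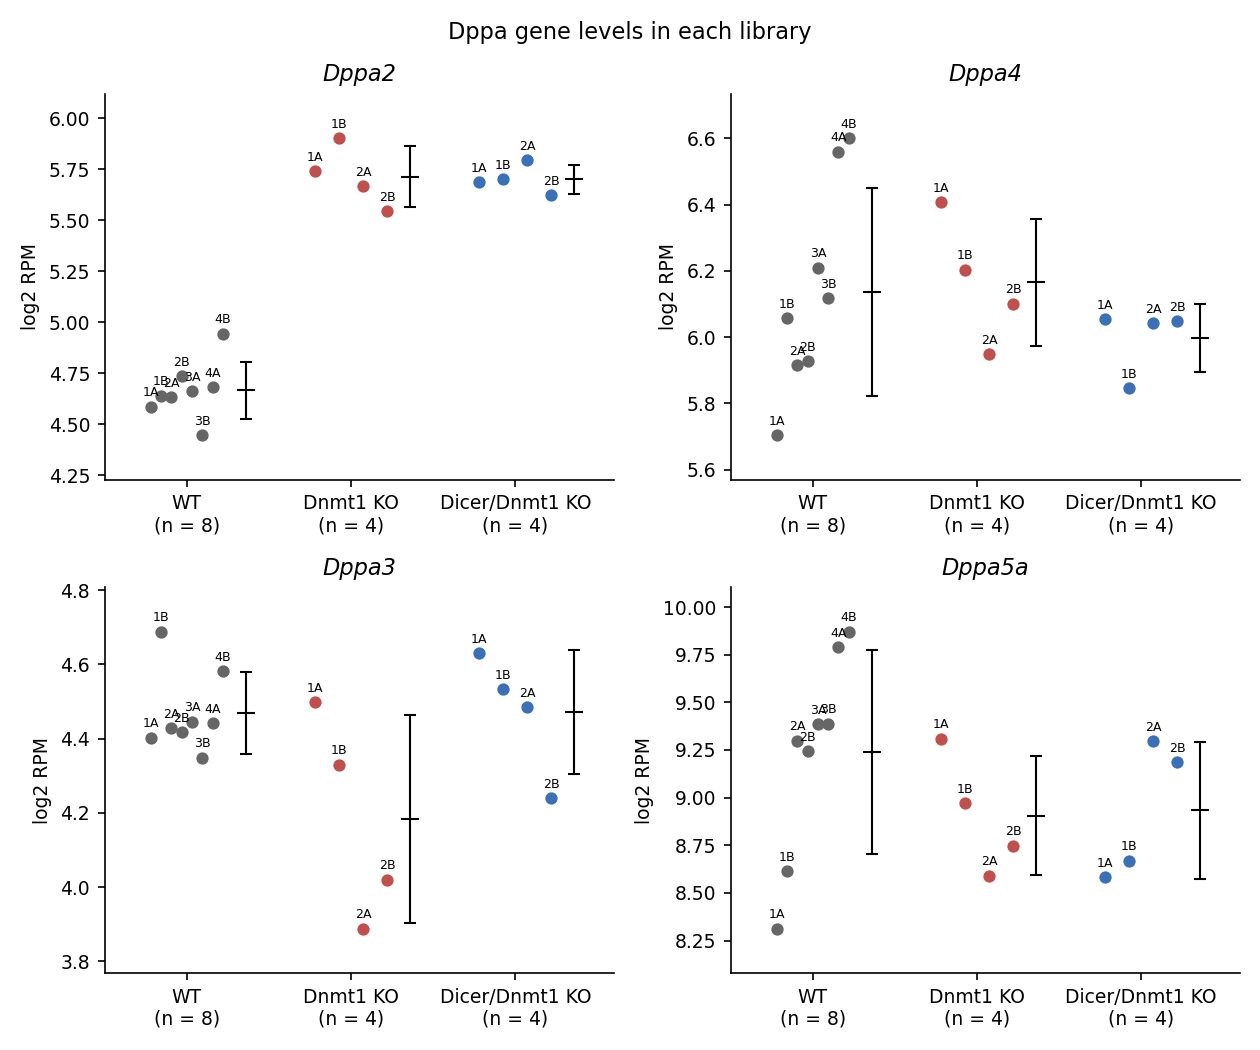
Level of each gene in each library, as deposited log2 RPM (vertical axis, a separate range for each gene), by group. Points are libraries marked with their number and letter, and the bar beside them is the mean ± SD. The 8 knockout libraries of Dppa2 sit between 5.54 and 5.90, all above the WT range of 4.45 to 4.94, while the groups overlap for the other genes.

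Dppa2 was measured with 758 to 2487 reads per library. In WT its log2 RPM ran from 4.45 through a median of 4.65 to 4.94. In Dnmt1 KO it was 5.74 in 1A, 5.90 in 1B, 5.67 in 2A and 5.54 in 2B. All Dnmt1 KO libraries lay above all WT libraries, as did 14.8% of tested genes in that direction. In the double knockout it was 5.69 in 1A, 5.70 in 1B, 5.79 in 2A and 5.62 in 2B, again entirely above WT, as were 22.6% of tested genes. The difference from WT was 1.05 ± 0.08 (SE) on the log2 scale in Dnmt1 KO (2.07-fold higher, adjusted p = 3.53e-08, limma) and 1.03 ± 0.08 in the double knockout (2.05-fold, adjusted p = 1.59e-08). A larger difference was fitted for 4.65% of tested genes in Dnmt1 KO and for 8.87% in the double knockout. Between the knockouts Dppa2 differed by -0.01, with a 95% interval of -0.21 to 0.19. In bulk RNA a rise in more cells and a rise in RNA per cell cannot be told apart.

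The rise of Dppa2 did not depend on which WT libraries were used. Against WT numbers 1 and 2 it was 1.06 in Dnmt1 KO and 1.05 in the double knockout, and against WT numbers 3 and 4 it was 1.03 and 1.02. Without WT 4A and 4B it was 1.10 and 1.08. Libraries A and B of a number resembled each other, and with their averages in place of the libraries the rise kept an adjusted p (limma) of 0.00058 in Dnmt1 KO and 0.000267 in the double knockout.

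**Figure D2:**
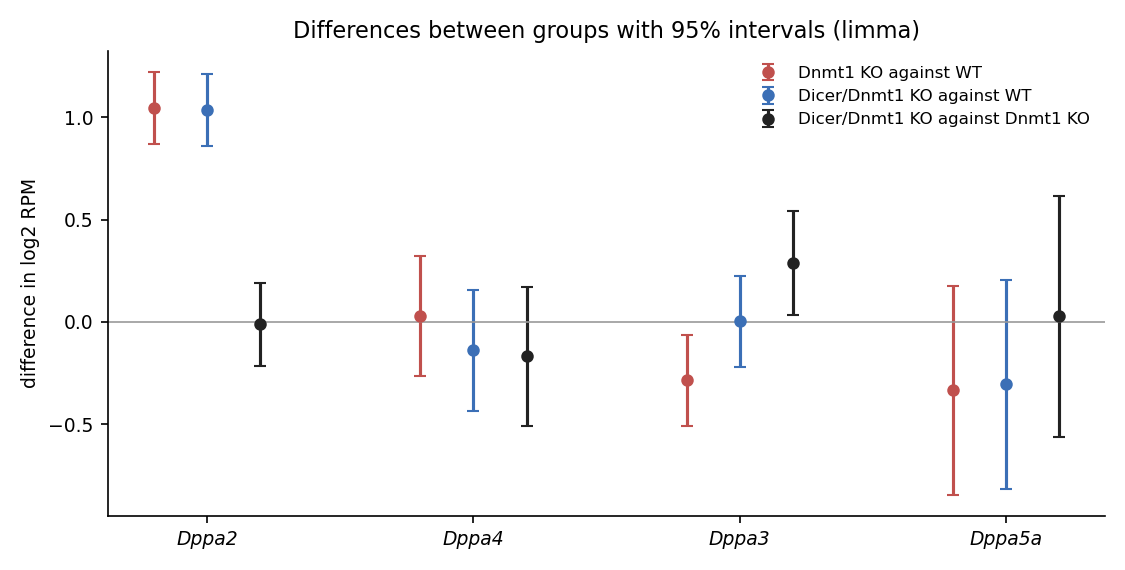
Difference in log2 RPM between groups (vertical axis) for the 4 genes, with the 95% interval of the limma fit, unadjusted for the number of genes. Dppa2 was 1.05 and 1.03 above WT in the knockouts, and the intervals of Dppa4 and Dppa5a include 0 in all 3 comparisons.

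Dppa4, the partner of Dppa2, did not pass the threshold in any comparison. In WT its log2 RPM ran from 5.70 in 1A through a median of 6.09 to 6.60 in 4B. In Dnmt1 KO it was 6.41 in 1A, 6.20 in 1B, 5.95 in 2A and 6.10 in 2B. In Dicer/Dnmt1 KO it was 6.05 in 1A, 5.85 in 1B, 6.04 in 2A and 6.05 in 2B. Every knockout value lay inside the WT range. The difference from WT was 0.03, with a 95% interval of -0.27 to 0.32, in Dnmt1 KO and -0.14, from -0.43 to 0.16, in the double knockout (adjusted p = 0.887 and 0.397, limma). Between the knockouts it was -0.17, from -0.51 to 0.17 (adjusted p = 0.441). These intervals exclude a rise of the size seen for Dppa2.

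The call for Dppa4 turned with the WT libraries chosen. WT 4A and 4B held it at 6.56 and 6.60, above every other library. Against WT numbers 1 and 2 Dppa4 was 0.26 higher in Dnmt1 KO (adjusted p = 0.0377, limma), and against WT numbers 3 and 4 it was 0.37 lower in the double knockout (-0.37, adjusted p = 0.01). Without WT 4A and 4B the differences were 0.18 and 0.01 (adjusted p = 0.152 and 0.944). The same libraries were those with the highest ribosomal protein share and the strongest lean towards short genes. After subtraction of each library's length trend Dppa4 was -0.06 and -0.07 from WT.

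The levels of Dppa2 and Dppa4 were closer together in the knockouts than in WT. The log2 ratio of Dppa2 to Dppa4, in RPM, ran in WT from -1.88 through a median of -1.48 to -1.12. In Dnmt1 KO it was -0.67 in 1A, -0.30 in 1B, -0.28 in 2A and -0.56 in 2B, and in Dicer/Dnmt1 KO it was -0.37 in 1A, -0.14 in 1B, -0.25 in 2A and -0.43 in 2B. The groups did not overlap with WT. Dppa2 had 0.361 reads for each read of Dppa4 in WT, 0.731 in Dnmt1 KO and 0.815 in the double knockout (geometric means). The log2 ratio was 1.02 higher than in WT in Dnmt1 KO and 1.17 higher in the double knockout (p = 0.00202 each, the smallest that 4 libraries against 8 allow, adjusted p = 0.00404 over 6 ratio tests, two-sided exact permutation test). Between the knockouts it differed by 0.16 (exact permutation test, p = 0.229, adjusted p = 0.274). Without WT 4A and 4B the differences from WT were 0.92 and 1.07. The test treats A and B of a number as independent libraries. With A and B averaged, the smallest exact permutation p against WT is 0.0667, so the ratio could not pass.

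**Figure D3:**
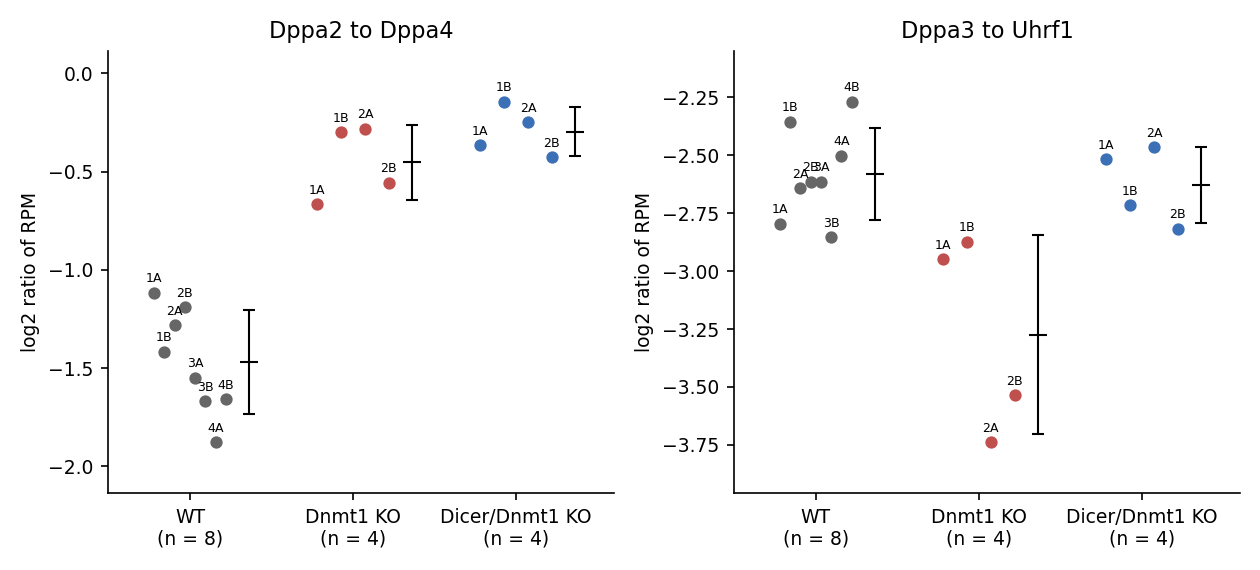
Log2 ratio of the RPM of Dppa2 to Dppa4 and of Dppa3 to Uhrf1 in each library (vertical axes, separate ranges), by group, with the mean ± SD beside the points. The ratio of Dppa2 to Dppa4 is -1.88 to -1.12 in WT and -0.67 to -0.14 in the knockouts, and that of Dppa3 to Uhrf1 is lowest in Dnmt1 KO 2A and 2B.

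Dppa3 was measured with 535 to 1145 reads per library. In WT its log2 RPM ran from 4.35 through a median of 4.43 to 4.69, the narrowest WT range of the 4 genes. In Dnmt1 KO it was 4.50 in 1A, 4.33 in 1B, 3.89 in 2A and 4.02 in 2B. In the double knockout it was 4.63 in 1A, 4.53 in 1B, 4.48 in 2A and 4.24 in 2B. Libraries 1B, 2A and 2B of Dnmt1 KO lay below all WT libraries, 1B by a margin smaller than the WT spread, and 1A lay inside the WT range. Dppa3 fell by 0.29 ± 0.11 (SE) on the log2 scale in Dnmt1 KO (adjusted p = 0.0376, limma), while in the double knockout it differed from WT by 0.00, with a 95% interval of -0.22 to 0.22 (adjusted p = 0.986). Between the knockouts the difference was 0.29 ± 0.12 and did not pass the threshold (adjusted p = 0.0724). The call in Dnmt1 KO depended on single libraries. The difference was -0.19 without 2A and -0.23 without 2B (adjusted p = 0.195 and 0.14), and the adjusted p was 0.211 with A and B averaged and 0.19 with A and B of a number treated as correlated. The call was also lost without WT 1B, WT 3A or WT 4B (-0.25, -0.29 and -0.27, adjusted p = 0.0649, 0.0504 and 0.0507). After subtraction of each library's length trend Dppa3 was 0.27 higher in Dicer/Dnmt1 KO than in WT (adjusted p = 0.0312) and 0.55 higher than in Dnmt1 KO (adjusted p = 0.00139).

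UHRF1, the protein that Dppa3 binds, recruits DNMT1 to newly replicated DNA. Uhrf1 rose by 0.41 ± 0.09 in Dnmt1 KO (adjusted p = 0.00108, limma), with all 4 libraries above WT. The margin was very small for 1B, at 7.204 beside 7.201 in WT 3B. In Dicer/Dnmt1 KO it differed from WT by 0.05 (adjusted p = 0.626). The log2 ratio of Dppa3 to Uhrf1 ran from -2.85 through a median of -2.61 to -2.27 in WT. It was -2.95 in 1A, -2.87 in 1B, -3.74 in 2A and -3.54 in 2B of Dnmt1 KO, all below WT, 1B only just. In the double knockout it was -2.52 in 1A, -2.72 in 1B, -2.47 in 2A and -2.82 in 2B, within the WT range. The ratio was 0.69 lower in Dnmt1 KO than in WT (-0.69, adjusted p = 0.00404, two-sided exact permutation test) and did not pass the test in the double knockout (-0.05, adjusted p = 0.689). Between the knockouts it was 0.65 higher in Dicer/Dnmt1 KO (p = 0.0286, the smallest that 4 libraries against 4 allow, adjusted p = 0.0429, exact permutation test), a call lost without any 1 of the 4 Dicer/Dnmt1 KO libraries (0.59 to 0.71, adjusted p = 0.129 to 0.171). These tests also treat A and B as independent. With A and B averaged, the smallest exact permutation p is 0.0667 against WT and 0.333 between the knockouts, so none could pass.

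Dppa5a was by far the most abundant of the 4 genes and the most variable. In WT its log2 RPM ran from 8.31 in 1A through a median of 9.34 to 9.87 in 4B. In Dnmt1 KO it was 9.31 in 1A, 8.97 in 1B, 8.59 in 2A and 8.75 in 2B. In Dicer/Dnmt1 KO it was 8.58 in 1A, 8.67 in 1B, 9.30 in 2A and 9.19 in 2B. Number 1 was above number 2 in Dnmt1 KO and below it in the double knockout, and all knockout values fell inside the WT range. The SD over WT was 0.53, and 97.1% of the 70 tested genes with a mean within 0.5 of its own (log2 RPM) had a lower one. Dppa5a differed from WT by -0.33, with a 95% interval of -0.84 to 0.18, in Dnmt1 KO and by -0.30, from -0.82 to 0.21, in the double knockout (adjusted p = 0.288 and 0.283, limma). Between the knockouts the difference was 0.03, from -0.56 to 0.62 (adjusted p = 0.947).

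The WT libraries chosen set this result too. Against WT numbers 1 and 2 Dppa5a was 0.04 and 0.07 from WT, and against numbers 3 and 4 it was 0.70 lower in Dnmt1 KO (-0.70, adjusted p = 0.00474, limma) and 0.68 lower in the double knockout (-0.68, adjusted p = 0.00359). Without WT 4A and 4B the differences were -0.14 and -0.11. Removing the length trend narrowed the WT spread of Dppa5a to an SD of 0.37, and the differences were then -0.30 in Dnmt1 KO and 0.04 in the double knockout.

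**Figure D4:**
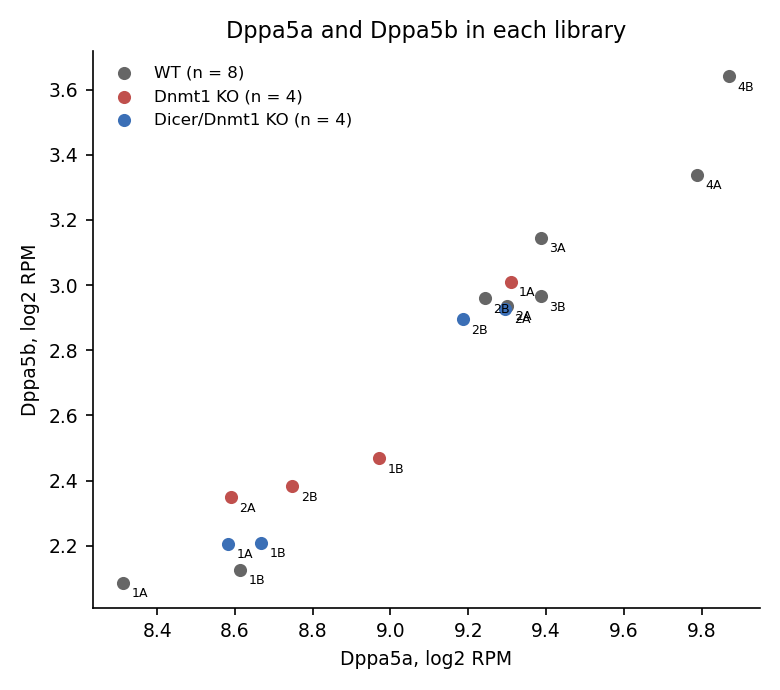
Level of Dppa5b (vertical axis, log2 RPM) against that of Dppa5a (horizontal axis, log2 RPM) in each library, coloured by group and marked with number and letter. The points lie along a line of slope near that of equal change, with 74.8 to 90.7 reads of Dppa5a for each read of Dppa5b.

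Dppa5b followed Dppa5a closely. Its log2 RPM ran from 2.09 in WT 1A to 3.64 in WT 4B, with 134 to 467 reads per library, and was 2.35 to 3.01 in Dnmt1 KO and 2.21 to 2.93 in the double knockout. There were 80.9 reads of Dppa5a for each read of Dppa5b in WT, 81.7 in Dnmt1 KO and 82.9 in the double knockout (geometric means). The ratio kept within 74.8 to 90.7 over all 16 libraries while Dppa5a itself spanned from 8.31 to 9.87 on the log2 scale. Given the shared sequence shown above, reads of the 2 genes could not be told apart with certainty. Dppa1, the remaining gene of the name in the table, had 0 or 1 read in each library and was not tested.

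Per kilobase of the longest annotated transcript, Dppa5a was highest and Dppa4 second in 16 of 16 libraries. The levels were 975 RPM per kb for Dppa5a, 45.9 for Dppa4, 26.6 for Dppa3 and 13.0 for Dppa2 in WT, and 774, 46.8, 21.8 and 26.9 in Dnmt1 KO. In the double knockout they were 789, 41.6, 26.6 and 26.7. Dppa3 was above Dppa2 in 8 of 8 WT libraries, below it in 4 of 4 Dnmt1 KO libraries, and above it in 2 of 4 Dicer/Dnmt1 KO libraries, where the pair differed by -0.16 to 0.17 on the log2 scale.

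The genomic neighbours of the Dppa genes moved in different directions. Next to Dppa2, on the far side from Dppa4, lies Morc1, a germline gene needed for silencing of transposons, 111514 bases away. Morc1 was 0.75 ± 0.16 (SE) higher in Dnmt1 KO (adjusted p = 0.000935, limma) and 1.05 ± 0.16 higher in the double knockout (adjusted p = 1.96e-05), with every knockout library above WT. Thus Dppa2 and Morc1 rose while Dppa4, 16185 bases from Dppa2, did not pass the threshold. Pvrl3, 1785210 bases before Dppa4, was -0.10 and 0.01 from WT (adjusted p = 0.183 and 0.897). The other neighbours of the pair, Gm7275, Gm7204, Trat1 and Retnlb, had at most 7 reads in a library and were not tested.

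Dppa3 lies in a cluster of pluripotency genes between Gdf3, a ligand of the TGF-beta family, and Nanog, a core pluripotency factor. Gdf3 differed from WT by 0.08 in Dnmt1 KO (adjusted p = 0.384, limma) and was 0.68 ± 0.07 (SE) higher in the double knockout (adjusted p = 3.54e-07). Nanog fell by 0.64 ± 0.11 in Dnmt1 KO (adjusted p = 0.000226) and differed by 0.09 in the double knockout (adjusted p = 0.493). Slc2a3, a glucose transporter beyond Nanog, fell by 0.75 and by 1.09 (adjusted p = 3.09e-06 and 1.59e-08), and Apobec1 differed by -0.20 and -0.02 (adjusted p = 0.224 and 0.925). Among these neighbours Nanog passed as lower in Dnmt1 KO and not in the double knockout, and the direct test between the knockouts gave 0.73 (adjusted p = 0.000365). Gm16556 and Gm4485 had at most 16 reads in a library.

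Beside Dppa5a lies Ooep, 7932 bases away, which encodes a related KH-domain protein of the oocyte. Ooep fell by 0.51 ± 0.18 (SE) in Dnmt1 KO (adjusted p = 0.0292, limma) and was 0.50 ± 0.18 higher in the double knockout (adjusted p = 0.0209). Between the knockouts it differed by 1.01 ± 0.21 (adjusted p = 0.00106), a direct test in which Dppa5a gave 0.03. Ddx43, an RNA helicase of the germline, rose by 0.62 and 0.61 (adjusted p = 0.00969 and 0.00683). With A and B of a number treated as correlated, Ooep in Dnmt1 KO (adjusted p = 0.0595) and Ddx43 in both knockouts (0.0922 and 0.0602) no longer passed. Gm8074, Omt2b, Gsta2 and 4930542C12Rik had at most 7 reads in a library and were not tested.

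**Figure D5:**
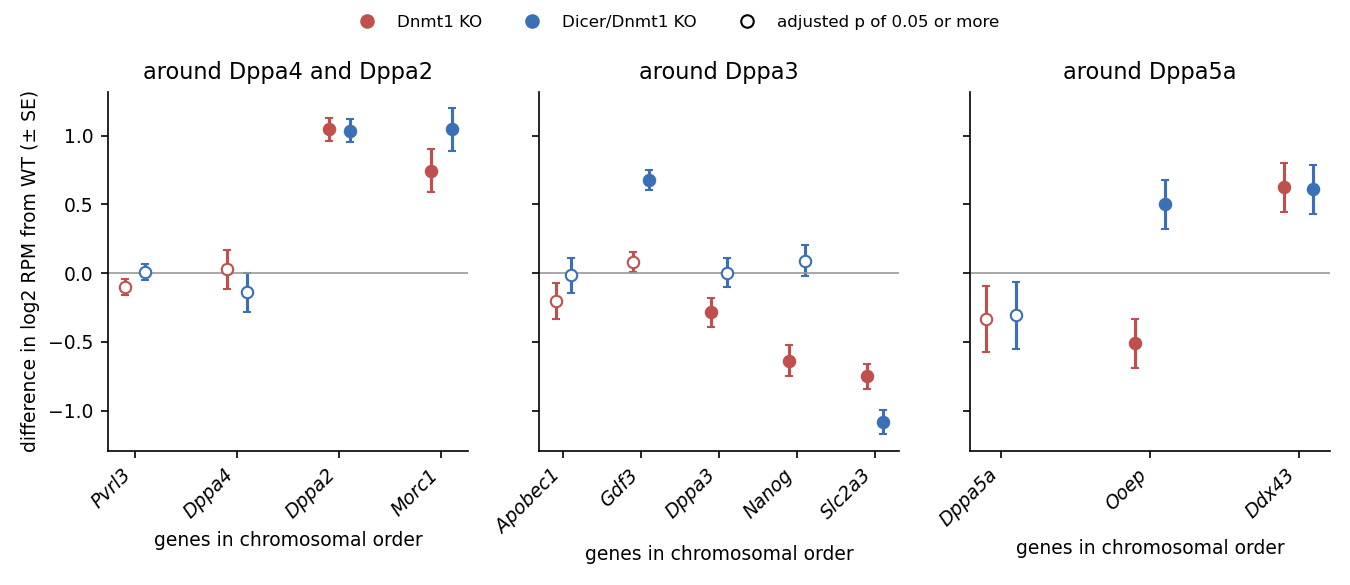
Difference in log2 RPM from WT (vertical axis, ± SE) for the tested genes among the 3 nearest on each side, in chromosomal order (horizontal axis, not to scale). Filled points had an adjusted p under 0.05. Dppa2 and Morc1 are 0.75 to 1.05 above WT, while Dppa4 and Pvrl3, on the other side of Dppa2, lie within 0.14 of it, and Ooep is 0.51 below WT in Dnmt1 KO and 0.50 above it in the double knockout.

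Of the genes known to depend on Dppa2 and Dppa4, the Zscan4 genes, expressed in the 2-cell-like state, were near 0 in WT and had many more reads in both knockouts. The list was chosen when earlier results of these data were known. Of 13 listed, 9 were in the table and 7 were tested, and 6 of these, the 5 Zscan4 genes and Zfp352, had 0 WT libraries above 1 RPM and so entered the test only through the knockouts where they were high. A call of these 6 as higher was largely set by that filter, so no count is read against the share of all genes, and their reads are given as a description. Zscan4f had 1 to 7 reads in a WT library, 211 to 322 in Dnmt1 KO and 223 to 387 in the double knockout, a ratio of pooled rates to WT of 103 (exact 95% interval for counting error 69.0 to 162) and 123 (81.9 to 192). Zscan4d had 0 to 8 reads in WT, 268 to 378 in Dnmt1 KO and 265 to 490 in the double knockout, with ratios of 89.7 (62.9 to 133) and 109 (76.4 to 161). These genes are near-identical copies of each other, so the split of reads among them is uncertain. Dux, the activator of the Zscan4 genes, had 1 read in all WT libraries together, 5 to 14 reads in a Dnmt1 KO library and 0 to 5 in a Dicer/Dnmt1 KO library, and was too low to be tested. Syce1, a meiotic synapsis gene, was the 1 tested gene that passed the filter on its WT libraries, and it rose by 1.59 in Dnmt1 KO (adjusted p = 2.04e-05, limma) but was not called in the double knockout (0.31, adjusted p = 0.223, limma). It was lower in Dicer/Dnmt1 KO than in Dnmt1 KO (-1.28 ± 0.25, adjusted p = 0.000876, limma, and 0.058 with A and B treated as correlated). Nkx2-5, the remaining gene in the table, was too low to be tested, with 5 to 19 reads in a WT library, 1 to 7 in Dnmt1 KO and 13 to 20 in the double knockout. Its ratio of pooled rates to WT was 0.457 (0.254 to 0.775) and 1.93 (1.39 to 2.69), so not every listed gene was higher in Dnmt1 KO.

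Genes of DNA methylation, into which Dppa3 feeds, moved in both directions. Dnmt1 KO gave 7 rises and 2 falls among 15 measured, and the double knockout 3 rises and 6 falls, where 41.0% and 61.9% of all tested genes were called. These counts include Dnmt1 itself, whose fall in both knockouts was set by its deletion. In Dnmt1 KO the other fall was that of Zfp57. The medians were 0.26 and -0.18, beside 0.04 and 0.02 over all tested genes. Dnmt3l, the cofactor of the de novo enzymes, rose by 1.16 ± 0.12 in Dnmt1 KO (adjusted p = 7.37e-07, limma) and was lower in the double knockout than in Dnmt1 KO (-1.34, adjusted p = 1.96e-06). Dnmt3b, a de novo methyltransferase, was also lower between the knockouts (-0.99, adjusted p = 0.000144). Tet3, which oxidises methylated cytosine, was 0.84 higher in Dnmt1 KO and 1.66 higher in the double knockout (adjusted p = 0.0434 and 0.000236), and Tet1 was 0.52 higher in Dicer/Dnmt1 KO (adjusted p = 0.0237). Zfp57, which guards imprints, fell by 0.35 and 0.55 (adjusted p = 0.0285 and 0.000821). With A and B treated as correlated the calls of Tet3 and Zfp57 in Dnmt1 KO and of Tet1 were lost (adjusted p = 0.106, 0.073 and 0.0624).

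Among early germ cell genes, of which Dppa3 is a marker, Dnmt1 KO gave 2 rises and 4 falls among 11 measured, and the double knockout 6 rises and 2 falls, beside the same 41.0% and 61.9% over all tested genes. The medians were -0.20 and 0.86. Dazl, a germline RNA-binding protein, rose by 1.69 ± 0.24 in Dnmt1 KO and by 1.39 ± 0.24 in the double knockout (adjusted p = 2.41e-05 and 7.92e-05, limma). Nanos3, needed for germ cell survival, was 1.16 and 1.91 higher (adjusted p = 0.00321 and 1.91e-05), but had 0 WT libraries above 1 RPM and entered the test only through the knockouts. It is among the rises counted above in both knockouts, and its values are no support for those counts or medians. Ifitm1 fell by 0.81 and the receptor gene Kit by 0.77 in Dnmt1 KO (adjusted p = 0.000104 and 0.00206), and the helicase Ddx4 fell by 0.68 and Dnd1 by 0.54 in the double knockout (adjusted p = 2.39e-05 and 0.00143). Between the knockouts 7 were higher and 1 lower, where 36.3% of all tested genes were called, led by Prdm14 at 1.53 and Alpl at 1.36 (adjusted p = 3.55e-05 and 8.58e-06). The call of Nanos3 in Dnmt1 KO was lost with A and B treated as correlated (adjusted p = 0.125).

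Naive pluripotency genes, which ESCs express with Dppa3, Dppa4 and Dppa5a, gave 1 of 12 tested higher and 5 lower in Dnmt1 KO and 3 higher and 1 lower in the double knockout. The 4 of 12 called in the double knockout was below the 61.9% of all tested genes, and the 6 of 12 for Dnmt1 KO stood beside 41.0%. Klf2 rose by 2.98 ± 0.25 in Dicer/Dnmt1 KO (adjusted p = 2.46e-08, limma), and Tcl1 fell by 0.92 and 1.03 (adjusted p = 0.000314 and 5.05e-05). Of 5 primed state genes tested, 1 was higher and 2 lower in Dnmt1 KO and 1 higher and 3 lower in the double knockout, beside the same shares. Otx2 fell by 2.25 and 3.69 (adjusted p = 4.31e-08 and 5.2e-11), while Lef1, an effector of Wnt signalling, rose by 1.67 and 0.60 (adjusted p = 1.86e-05 and 0.0303). The table held 8 relatives and partners of Dppa5a, of which 3 were tested, Ooep (described above) among them. Zbed3 was 0.68 and 0.84 higher (adjusted p = 0.0384 and 0.00775), and Tle6, at 1.79 in WT, 1.70 in Dnmt1 KO and 1.61 in the double knockout, did not pass the threshold. With A and B treated as correlated the calls of Lef1 in the double knockout and Zbed3 in Dnmt1 KO were lost (adjusted p = 0.112 and 0.15).

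Some markers of other cell types differed between the groups and others did not. The summed level of the primitive endoderm markers was 41.6 to 56.0 RPM in Dnmt1 KO, beside 12.1 to 21.6 in WT and 20.8 to 28.4 in the double knockout. Of 7 tested, 7 were called higher for Dnmt1 KO and 4 for the double knockout, where 23.5% and 31.9% of all tested genes were, and 4 were lower between the knockouts, where 19.4% were. Sox17, Sox7 and Foxa2 among them entered the test only through knockout libraries, so their calls are no support for these counts. Among 10 fibroblast (feeder) markers, Dnmt1 KO gave 5 rises and 1 fall and the double knockout 8 rises and 1 fall, where 41.0% and 61.9% of all tested genes were called. Their sums were 88.5 to 162 RPM in WT, 157 to 167 in Dnmt1 KO and 136 to 227 in the double knockout. The 4 trophoblast markers in the table summed to 0.728 to 1.59 RPM in WT, 2.83 to 4.82 in Dnmt1 KO and 2.52 to 3.51 in the double knockout, and the 4 mesoderm markers to 4.06 to 5.42, 4.04 to 4.28 and 2.90 to 3.75. The 2 trophoblast markers tested, Hand1 and Cdx2, had 0 WT libraries above 1 RPM and entered the test only through the knockouts, so calls of them as higher were set by the filter. Hand1 was 3.19 and 3.06 higher, and Cdx2 was 1.23 higher in Dnmt1 KO, a call lost with A and B treated as correlated (adjusted p = 0.0739, limma). The 1 mesoderm marker tested, Eomes, was not called. No listed marker was at 0 in every library, the lowest being Mesp1, with at most 5 reads, and Lum, with at most 7. Their part in the differences of the Dppa genes was not tested.

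The genes whose levels were most like each Dppa gene over the 16 libraries, among 10250 candidates, are given as a description, since the libraries fall into groups and share depth and length trends. For Dppa2 they were Smtnl1 (Pearson r = 0.98), Lgals3 (0.98) and Xbp1 (0.97), which, like Dppa2, were higher in both knockouts than in WT on average. For Dppa4 they were Snx2 (0.97), Ppia (0.96) and Calu (0.95), and for Dppa3 they were Dnajc4 (0.93), Ddx59 (0.91) and Apoe (0.90). For Dppa5a they were Dppa5b (0.98), Eif2s2 (0.94) and Mtf2 (0.94). With group means subtracted, the nearest were Ssr2, mt-Nd3 and Ell2 for Dppa2 (0.89, 0.87 and 0.86), Pomp, Uqcrc2 and Rpl26 for Dppa4 (0.98 each), Cwc27, Hist1h3b and Ifitm2 for Dppa3 (0.92, 0.89 and 0.89), and Faf1, Dera and Fignl1 for Dppa5a (0.98 each).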

How the data were processed

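The authors trimmed stranded paired reads of 100 bases with Trim Galore, aligned them to NCBIM37 with TopHat, discarded mapping qualities under 20 and quantified genes in SeqMonk. The submitters' processing notes give Trim Galore 0.3.5 and TopHat2 2.0.11. The deposited values are log2 RPM, and 35 columns of other samples were not used. On the linear scale at least 99.99% of values in each library came out as whole reads (tolerance 0.1), with 0 reads written as 0.9 read. Totals were 31.5 to 52.5 M reads, at which 3 reads, the limit for a count of 0, are 0.0571 to 0.0954 RPM (counting error only).

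Genes above 1 RPM in at least 4 libraries (12892) were fitted with limma 3.58.1 in R 4.3.3, using a mean for each of 3 groups, all 16 libraries, an intensity trend and no covariate. Adjusted p under 0.05 (Benjamini-Hochberg) was called. The fit was also run on simulated data with known changes. Noise there was independent between libraries, whereas libraries of one group and number here had a consensus correlation of 0.667. The simulation therefore cannot show whether the p-values hold for these data. Ratios of single genes were tested by exact permutation. Annotation came from GENCODE M1 on the same build, 26055 genes having identical coordinates, and copies were sought with blastn 2.17.0 (E-value up to 1e-10). The members and gene lists were chosen with earlier results of these data known. Genes named are the members, other Dppa symbols, Dnmt1, Dicer1 and Uhrf1, the 3 nearest genes on each side of a member, and the 3 genes most like it. List genes were drawn from the 2 largest rises and falls called in each list and comparison, and not all of those are named. Pou5f1, Dux, Nkx2-5, Tle6, Eomes, Mesp1 and Lum were added after their values were seen. The DESeq2 and SeqMonk tests of the authors were not run, since the deposited unit is log2. Voom, a limma method for counts, was run on the recovered whole reads as an alternative setting. RefSeq promoter sequences of the members were not used here.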

Additional observations from a re-analysis of the deposited data

Results flagged for a closer look

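Over 18 groups of values (the 4 genes and 2 ratios in each of 3 groups), 1 library lay far from the others of its group. Dppa4 was 5.85 in Dicer/Dnmt1 KO 1B, with a gap to the next library of 0.948 of the range of its group, where the other 3 libraries were nearly equal. Chance gives such a gap in about 5% of groups.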

How the results depend on the processing

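The rise of Dppa2 kept its direction and its call in all 35 alternatives, with 0.94 to 1.10 for Dnmt1 KO and 0.97 to 1.10 for the double knockout. The other genes turned with the libraries used, and apart from fewer libraries or genes the cause was not tested. The lower Dppa3 in Dnmt1 KO lost its call with no filter, A and B averaged, A and B as a random block, only the 2 groups compared or a 2-fold minimum (each -0.29), with letter A (-0.24) or B (-0.33) alone, and against WT 1 and 2 (-0.30), 3 and 4 (-0.27) or 1 to 3 (-0.27). In Dnmt1 KO, Dppa4 turned negative with median centring (-0.0186), letter B (-0.0236), WT 3 and 4 (-0.21) and the length trend removed (-0.0577), and passed against WT 1 and 2 (0.26). Dppa5a was 0.0375 against WT 1 and 2 and passed against WT 3 and 4 (-0.70). In Dicer/Dnmt1 KO, Dppa3 was -0.0631 with median centring, -0.0792 with quantile normalization, -0.12 with letter B and -0.0128 against WT 1 and 2, and passed with the length trend removed (0.27). Dppa4 was 0.0965 against WT 1 and 2, 0.0089 against WT 1 to 3 and passed against WT 3 and 4 (-0.37). Dppa5a was 0.04 with quantile normalization, 0.0659 against WT 1 and 2, 0.0443 with the length trend removed and passed against WT 3 and 4 (-0.68). Between the knockouts Dppa2 was 0.0371 with letter A and 0.0842 with the length trend removed, Dppa5a was -0.0108 with letter A, and Dppa3 passed with the length trend removed (0.55). The removal of the length trend was chosen after seeing the data.

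With A and B averaged the ratio tests could not pass: Dppa2 to Dppa4 (1.02 and 1.17) and Dppa3 to Uhrf1 (-0.69, and 0.65 between the knockouts) then had a smallest exact p of 0.0667, or 0.333 between the knockouts. Dppa3 to Uhrf1 in Dicer/Dnmt1 KO was 0.0169 against WT 1 to 3.

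Leaving out 1 library at a time gave, for Dnmt1 KO, Dppa2 0.98 to 1.10, Dppa3 -0.39 to -0.19, Dppa4 -0.0525 to 0.10 and Dppa5a -0.47 to -0.23. For Dicer/Dnmt1 KO it gave 1.00 to 1.07, -0.0504 to 0.0797, -0.20 to -0.0728 and -0.44 to -0.19, and between the knockouts -0.0689 to 0.0508, 0.19 to 0.39, -0.24 to -0.0867 and -0.0925 to 0.16. Dppa3 passed between the knockouts without Dnmt1 KO 1A (0.39) or Dicer/Dnmt1 KO 2B (0.37). The ratio of Dppa2 to Dppa4 ran from 0.96 to 1.09, 1.12 to 1.22 and 0.0836 to 0.21 in these comparisons, and that of Dppa3 to Uhrf1 from -0.83 to -0.54, -0.10 to 0.0145 and 0.49 to 0.78.

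Genes called numbered 5289 for Dnmt1 KO, 7985 for the double knockout and 4682 between the knockouts. They were 2288, 5134 and 1225 with A and B averaged, 1833, 4002 and 951 with letter A, 1610, 4813 and 667 with letter B, and 901, 1650 and 589 at a change of at least 2-fold. With A and B as a random block they were 2723 in Dnmt1 KO, 5755 in the double knockout and 2109 between the knockouts. Leaving out 1 library gave 4054 to 5624, 7109 to 8368 and 3690 to 5194. Of the genes called, 3030 were higher in Dnmt1 KO, against 2506 of 5413 with quantile normalization and 2412 of 6098 with the length trend removed, and in Dicer/Dnmt1 KO 4108 were higher, against 3146 of 8090 with the length trend removed.

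Libraries of the same number and letter did not consistently deviate together across groups, with correlations of deviations from -0.42 to 0.37. These values cannot settle whether the libraries were paired or share a batch. With a replicate block on number and letter, using WT 1 and 2, Dppa5a was 0.0375 in Dnmt1 KO. For the double knockout Dppa3 was then -0.0128, Dppa4 0.0965 and Dppa5a 0.0659, while Dppa3 passed between the knockouts (0.29). A replicate block on number alone gave the same values and Dppa4 passed in Dnmt1 KO (0.26). The block on number and letter called 5661, 7122 and 5864 genes.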
